A study of Homo sapiens with 22 samples.

Results

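N-MYC binding was compared between 2 human neuroblastoma cell lines, CHP-134 and IMR-32, using the 5 N-MYC ChIP-seq peak lists made without an active compound. These are 3 lists of CHP-134 cells given DMSO, the solvent of the compound, for 4 h and 2 lists of untreated IMR-32 cells, 5 of the 22 samples of the series, of which 16 have a peak list here. Both lines are established cultures in which the MYCN gene is amplified, so each is 1 tumour's cells and not a sample of neuroblastoma. The labels give the DMSO content as 0.005% in one protocol and 0.0005% in another, and the IMR-32 cells had no DMSO. The CHP-134 libraries were read as 75-base single reads and the IMR-32 libraries as 150-base read pairs on another sequencer, so line, solvent and sequencing run cannot be told apart in any comparison that follows.

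N-MYC is a transcription factor of the MYC family that binds DNA as a dimer with MAX. The dimer favours the E-box CACGTG, and it is found at most active promoters when the protein is abundant, including those of genes for ribosome production, translation and nucleotide synthesis. WDR5, a chromatin scaffold protein, is known to recruit MYC proteins to a set of promoters that is rich in ribosomal protein genes.

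The lists held 15286, 9125 and 12283 peaks in CHP-134 replicates 1, 2 and 3 and 8286 and 5242 peaks in IMR-32 replicates 1 and 2. A peak's fold is its enrichment over the local background as the peak caller gave it, and its percentile is the rank of that fold within its own list, from 0 to 100. Read depth is unknown, and the lists hold no expression values against which the identity of the lines could be checked. Peaks that overlapped by at least 1 bp were joined, which gave 19948 sites, of which 3072 (15.4%) were listed in all 5 libraries. The CHP-134-only sites, listed in all 3 CHP-134 and in no IMR-32 library, numbered 2128 (10.7% of sites), and the IMR-32-only sites, listed in both IMR-32 and in no CHP-134 library, numbered 350 (1.75%). The imbalance moved with list length: with every list held to its 5000 peaks of highest fold, the counts were 436 and 523. Leaving out CHP-134 replicate 2 raised the CHP-134-only count to 3926, leaving out IMR-32 replicate 1 gave 3541 and 698, and leaving out IMR-32 replicate 2 raised the IMR-32-only count to 1595.

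The sequences under the strongest line-only E-box sites are shown first, since the hexamer is the element N-MYC is known for. All coordinates are GRCh37 (hg19), the sequence is the forward strand, and the capitals mark the hexamer nearest the summit. The CHP-134-only sites lay in an intron of GRM8 (chr7:126124324-126124403), in the UTR of TMEM185B (chr2:120980713-120980742), in a coding exon of KLHL17 (chr1:896842-896871) and in a coding exon of RTN1 (chr14:60194079-60194108).
GRM8 intron: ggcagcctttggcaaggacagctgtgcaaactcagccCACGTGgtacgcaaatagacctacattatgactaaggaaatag
TMEM185B: gagaggccggaaCACGTGcacgcgcggtca
KLHL17: gacatcgtcctgCACGTGgctgccaaggag
RTN1: cggcgggccgccCACGTGgccaaagctcac
The IMR-32-only sites lay outside genes near LINC00896 (chr22:20199636-20199715), in an intron of the noncoding LINC01730 upstream of AP5S1 (chr20:3792519-3792598), outside genes near ANKRD36BP2 (chr2:89065220-89065299) and in an intron of a noncoding gene downstream of METRNL (chr17:81153341-81153420).
LINC00896: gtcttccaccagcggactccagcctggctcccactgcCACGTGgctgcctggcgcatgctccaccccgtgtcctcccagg
LINC01730: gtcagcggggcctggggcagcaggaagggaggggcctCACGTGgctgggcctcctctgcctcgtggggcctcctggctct
ANKRD36BP2: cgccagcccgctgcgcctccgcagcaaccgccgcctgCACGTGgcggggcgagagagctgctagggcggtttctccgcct
METRNL: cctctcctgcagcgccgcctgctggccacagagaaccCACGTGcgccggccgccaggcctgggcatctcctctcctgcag
The 20 bases centred on the E-box occurred once in the genome at 7 of these 8 sites and 8 times at the METRNL site, where the placement of reads is uncertain.

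CHP-134-only promoters were led by genes of several kinds. TMEM185B, a membrane protein gene, stood at the 98.1, 95.8 and 99.0 percentile in replicates 1 to 3, with folds of 13.8, 11 and 16.6. KLHL17, which encodes an actin-binding substrate adaptor, stood at 97.7, 95.8 and 98.6. These sites were thus above the 95 percentile in every CHP-134 library while no peak was listed in IMR-32. TRIM71, an RNA-binding ubiquitin ligase of early development, reached percentiles of 98.7, 98.4 and 94.4, and NPR2, a natriuretic peptide receptor, 95.9, 96.9 and 97.2. BCL2L11, the gene of the cell death protein BIM, was at 95, 96.0 and 97.4. RNF2, a catalytic subunit of Polycomb repressive complex 1, stood at 93.4, 94.0 and 94.1, the narrowest spread of the 10 (mean 93.8 ± 0.37, SD, n = 3). The other named promoters were PDPR, ZNF587B, EIF4G3 and a site at −1571 bp from the TSS of TWIST1, with mean percentiles between 93.7 and 94.6. The ZNF587B site was CHP-134-only, but ZNF587B was not among the CHP-134-only genes, which are counted over all TSSs of a gene. PDPR has near copies elsewhere in the genome, so its value is uncertain.

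The strongest distal CHP-134-only sites, over 10 kb from any TSS, included the GRM8 intron site shown above (percentiles of 98.3, 99.2 and 96.4), exons of DTNBP1 and RTN1, and intergenic sites near PARD3B and SFMBT2. Their mean percentiles ran from 95.6 to 98.0.

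IMR-32-only promoters were fewer than CHP-134-only promoters, at 72 against 1338 sites. FABP5, a fatty acid binding protein gene on chromosome 8, stood at the 98.4 and 97.5 percentile, and DDX1, an RNA helicase gene that is a frequent neighbour of MYCN in amplified DNA, at 97.5 and 97.3. Folds at the DDX1 promoter were 13.4 and 13.9. WDR5 was listed at that promoter in 2 CHP-134 and in both IMR-32 libraries, so WDR5 was listed there in CHP-134 and N-MYC was not. Among the chromatin genes, SMARCA2 stood at 96.5 and 63.6 at a start site within the gene and ARID1B at 82.2 and 67.2, both subunits of SWI/SNF remodelling complexes. The class here is that of the site. ARID1B, and TBC1D30 below, were not among the IMR-32-only genes, which are counted over all TSSs of a gene. NRN1, a neurite growth gene, was at 78.7 and 78.0. The last of the 10 promoters of this ranking, TBC1D30, had a mean of 69.4 ± 12 (SD, n = 2), against 93.7 ± 5.7 (SD, n = 3) for the last of 10 in CHP-134, EIF4G3. With 72 and 1338 sites to rank, these means cut the classes at unlike depths. The median percentile was 45.3 at IMR-32-only promoters outside the 6 windows of chromosome 2 described below, and 47.0 at CHP-134-only promoters. Distal IMR-32-only sites lay in introns of GRK2, GRID1 and SORCS1 and near METRNL, with mean percentiles from 90.2 to 94.1.

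The share of sites without a peak in the other line was lower among strong than among weak sites. Of the 6963 sites listed in all CHP-134 libraries, the share in no IMR-32 library was 55.7% in the lowest 10% by mean percentile and 6.31% in the highest 10%. Of the 4036 sites in both IMR-32 libraries, the share in no CHP-134 library was 31.4% in the lowest 10% and 2.23% in the highest. That lowest group reaches a mean percentile of 24.9. Many of its unshared sites lie in the 6 windows of chromosome 2 described below, whose 84 IMR-32-only sites had a median of 1.05. Distal sites were shared less than promoter sites: 42.3% of the distal but 26.7% of the promoter sites of CHP-134 had no IMR-32 peak, and 26.9% of the distal but 2.57% of the promoter sites of IMR-32 had no CHP-134 peak. These shares describe sites, which are not replicates.

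**Figure D1:**
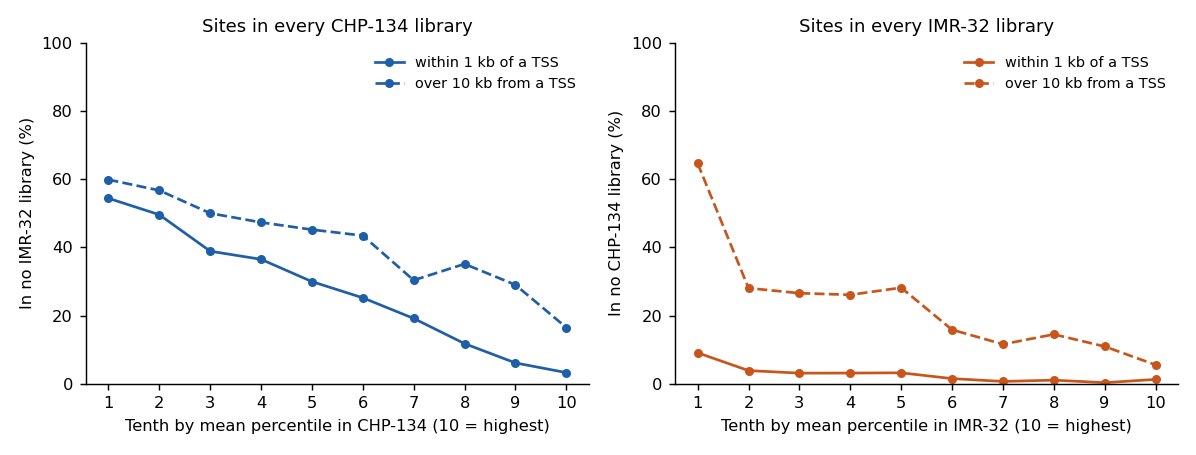
Share (%) of the sites listed in every library of one line that were listed in no library of the other, in 10 equal groups by mean percentile of fold (10 is the strongest), for promoter sites (solid) and sites over 10 kb from a TSS (dashed). The shares are lower in the strongest than in the weakest group, and the distal curve lies above the promoter curve in both lines. Of the 130 distal sites in the lowest IMR-32 group, 64.6% were in no CHP-134 library. The 6 windows of chromosome 2 hold 57 distal IMR-32-only sites, with a median percentile of 0.945.

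The classes also differed in where they lay. Among the 2128 CHP-134-only sites, 62.9% were within 1 kb of a TSS and 22.4% over 10 kb away, and among the 3072 sites of all 5 libraries 77.7% and 12.4%. The 350 IMR-32-only sites were reversed, with 20.6% at promoters and 58% distal. The E-box stood within 100 bp of the summit at 46.3% of the sites of all 5 libraries and at 26.7% of the CHP-134-only sites, against 1.89% and 2.40% in windows 2 kb away.

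Within a list, the E-box share climbed with fold in all 5 libraries. Of 5 equal groups of peaks by fold, the strongest had shares of 42.6%, 51.3% and 50.3% in CHP-134 and 57.9% and 64.8% in IMR-32, so the lines did not overlap (48.1 ± 4.8 against 61.4 ± 4.9, SD, n = 3 and 2; exact permutation p = 0.1, the smallest this design allows, adjusted p = 0.214 over 30 comparisons). In the weakest group the lines did overlap (17.0 ± 3.1 against 14.1 ± 2.3; exact permutation p = 0.4, adjusted p = 0.571). Over whole lists the shares were 24.2%, 31.3% and 29.0% against 32.1% and 37.9% (exact permutation p = 0.2, adjusted p = 0.375). With 5000 peaks per list they overlapped, at 39.1 ± 2.3% and 40.7 ± 2.1%, so the whole-list difference moved with list length. Each of the 5 groups holds more peaks in a longer list, so the gap in the strongest group was not separated from list length either.

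**Figure D2:**
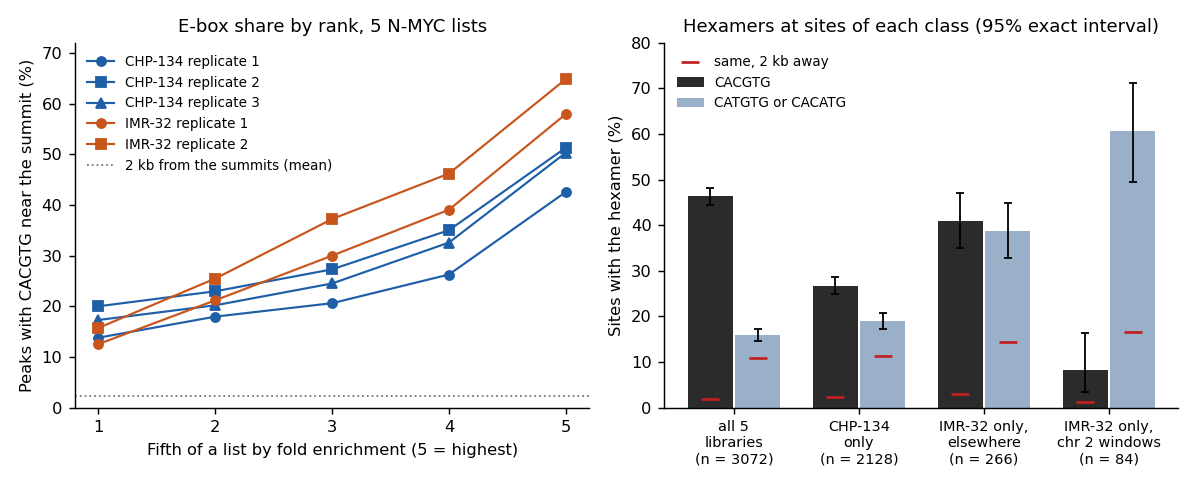
Left, share (%) of peaks with CACGTG within 100 bp of the summit in each of 5 equal groups of a list by fold, 1 line per library, with the mean 2 kb away dotted. Right, share (%) of sites with CACGTG (black) or CATGTG on either strand (blue) by class, with 95% exact binomial intervals that cover counting error only, and red ticks for the same windows 2 kb away. CACGTG leads at sites of all 5 libraries, and CATGTG leads at the IMR-32-only sites of the 6 windows of chromosome 2.

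Peak shape differed too. The median width was 543.5, 511 and 512 bp in CHP-134 and 351 and 331 bp in IMR-32. The median distance from summit to E-box, among peaks with an E-box within 100 bp, was 26, 25 and 24 bp in CHP-134 and 19 bp in both IMR-32 libraries. Promoter summits lay a median of 5, 4 and 5 bp upstream of the TSS in CHP-134 and 14 and 17 bp upstream in IMR-32. None of these measures overlapped between the lines (exact permutation p = 0.1 for each, adjusted p = 0.214), and the read length and pairing of the 2 runs cannot be told apart from the line here. The share of promoter peaks overlapped between the lines, at 64.2 ± 3.2% and 64.8 ± 3.1% (exact permutation p = 0.8). With 5000 peaks per list it did not overlap, at 69.5 ± 0.86% and 67.6 ± 1.3% (SD, n = 3 and 2; exact permutation p = 0.1, adjusted p = 0.214).

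In the full lists, chromosome 2 held 117 of the 350 IMR-32-only sites (33.4%) against 8.20% of all sites and 6.48% of CHP-134-only sites. With 5000 peaks per list the share was 9.37%, against 7.63% of all sites, and it was 22.6% without IMR-32 replicate 1 and 18.1% without IMR-32 replicate 2. In all, 6 windows of 1 Mb, all on the short arm of that chromosome, held at least 5 each and 84 together. The window at 67 to 68 Mb, downstream of the homeobox gene MEIS1, held 28. It contains the ETAA1 promoter, and ETAA1 was the nearest coding gene of most of the 28. The window at 15 to 16 Mb, which contains DDX1 and ends short of MYCN, held 26. A further 10 lay at 14 to 15 Mb near LRATD1, 8 at 29 to 30 Mb in the region of the receptor kinase gene ALK, 6 at 16 to 17 Mb around MYCN itself and 6 at 66 to 67 Mb near MEIS1. The 6 windows took 1.87% and 2.21% of the N-MYC peaks of IMR-32 and 0.157%, 0.175% and 0.244% of those of CHP-134, a contrast that chose the windows and so is given with no test.

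The WDR5 lists, which did not choose the windows, split the same way. WDR5 peaks in the 6 windows made up 3.66% and 3.18% of the IMR-32 lists and 0.388%, 0.114% and 0.359% of the DMSO-treated CHP-134 lists, an 11.9-fold ratio of the means (3.42 ± 0.34% against 0.287 ± 0.15%; exact permutation p = 0.1, the smallest this design allows, adjusted p = 0.114 over 8 comparisons). The 8 comparisons also include N-MYC contrasts of regions that the N-MYC lists had chosen, so the adjusted p is not one for WDR5 alone. Both IMR-32 WDR5 lists overlapped 22 of the 84 IMR-32-only sites of the windows (26.2%) but 3 of the 266 elsewhere (1.13%). Outside the windows chromosome 2 took 7.09%, 7.09% and 6.69% of the CHP-134 N-MYC peaks and 7.90% and 7.46% of those of IMR-32.

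Most of these sites were weak by the peak caller's measure. The median percentile over the 84 sites was 1.05 in IMR-32, against 47.1 for the 266 IMR-32-only sites elsewhere, and the median folds per window lay between 1.63 and 2.79. The DDX1 promoter was the exception described above. At the MYCN promoter (chr2:16079701-16082531) the percentiles were 20.6 and 18.2 with folds of 4.22 and 4.55, and an E-box site at −50494 bp from the TSS of MYCN had percentiles of 55.5 and 42.0. None of these was listed in a DMSO-treated CHP-134 library. MYCN is amplified in both lines, and how far the amplified DNA reaches in either is unknown here. Copy number was not measured, and its part in the pattern was not tested.

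The hexamers at these sites differed from those elsewhere. CACGTG stood at 7 of the 84 (8.33%, 95% exact binomial interval 3.42 to 16.4) and at 109 of the 266 elsewhere (41%, 35.0 to 47.1), whereas CATGTG, an E-box variant searched on both strands, stood at 60.7% (49.5 to 71.2) and 38.7% (32.8 to 44.9). In windows 2 kb away CATGTG stood at 16.7% and 14.3%. The CACGTG contrast is not separated from rank, since the window sites were mostly weak and the E-box share climbed with fold. Over all peaks in the weakest of 5 equal groups by fold, CACGTG stood at 12.5% and 15.7% in IMR-32 replicates 1 and 2. Part of this lay in repeated sequence: the 20 bases around the variant occurred once in the genome at 34 of the 51 window sites and at least 10 times at 12 of them. Counting the 34 alone, the share was 40.5% of the 84 sites, against 33.5% of the 266 elsewhere, 17.1% of CHP-134-only sites and 15% of sites in all 5 libraries. Among distal sites, counting every copy, the variant stood at 66.7% in the 6 windows, 47.9% in the IMR-32-only class elsewhere, 40.5% in the CHP-134-only class and 43.7% in the class of all 5 libraries.
An example in an intron of NBAS (chr2:15453746-15453825) and another outside genes, downstream of MEIS1 (chr2:67117803-67117882), are shown with the variant in capitals, each the strongest distal site of its window with the variant in sequence that occurs once and no CACGTG within 100 bp.
NBAS: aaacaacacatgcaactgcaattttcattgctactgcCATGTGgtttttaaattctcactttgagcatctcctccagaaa
MEIS1: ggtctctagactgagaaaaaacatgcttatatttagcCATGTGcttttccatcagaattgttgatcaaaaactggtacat
Both had low percentiles in IMR-32, with means of 2.16 and 1.11.

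The opposite pattern appeared on chromosome 1 and chromosome 16. In bins of 20 Mb with at least 20 CHP-134 sites, the median share without an IMR-32 peak was 30.4% over 126 bins, and the 3 highest were chromosome 1 from 0 to 20 Mb (77.0%), chromosome 16 from 80 Mb (72.1%) and chromosome 1 from 20 to 40 Mb (70.8%). On the first 40 Mb of chromosome 1, 164 of 224 CHP-134 sites were in no IMR-32 library, against 28.7% of the 6671 sites outside this stretch and the end of chromosome 16. The stretch was chosen by this share, so the values by rank only describe it, and sites are not replicates. In the highest of 3 equal groups by mean percentile the share was 33.9% of 56 sites (95% exact binomial interval 21.8 to 47.8, counting error only) against 11.6% of 2241, and in the lowest group 93.1% against 46.2%. With lists of 5000 peaks the share on this stretch was 42.9%, against 17.3% of all other sites, here with the end of chromosome 16 included (29.1% in the full lists). Again the WDR5 lists differed in the same direction: the stretch held 2.88%, 3.47% and 3.11% of the CHP-134 and 1.06% and 1.35% of the IMR-32 peaks (exact permutation p = 0.1, adjusted p = 0.114), and the end of chromosome 16 held 0.695%, 0.796% and 0.718% against 0.236% and 0.159% (exact permutation p = 0.1, adjusted p = 0.114).

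Named CHP-134-only sites on that stretch of chromosome 1 were KLHL17 and EIF4G3, given above, a site 4443 bp downstream of the start of ID3, an inhibitor of helix-loop-helix factors (percentiles of 95.8, 94.9 and 95.7), and the promoters of SRM, the spermidine synthase gene (92.5, 82.3 and 91.9), ARID1A, a SWI/SNF subunit, and KDM1A, a histone demethylase. These were chosen after their values were seen. No part of them was listed for N-MYC in IMR-32.

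**Figure D3:**
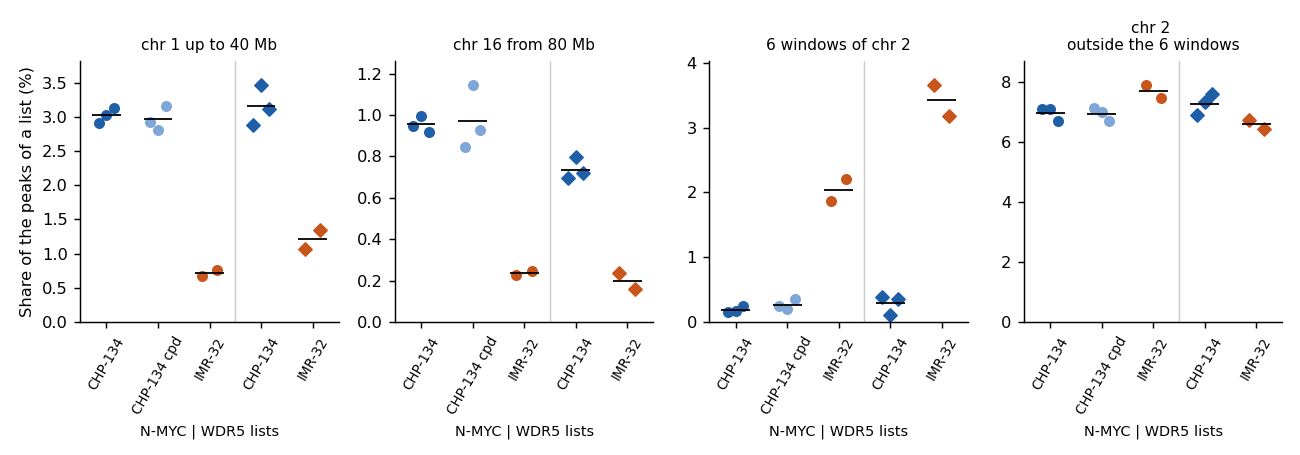
Share (%) of the peaks of each list that fall in 4 regions, 1 point per library and a bar at the group mean, for N-MYC (circles, left of the line) and WDR5 (diamonds, right) in CHP-134 (blue; pale blue, treated with the compound) and IMR-32 (orange). The first 40 Mb of chromosome 1 and the end of chromosome 16 are low and the 6 windows of chromosome 2 high in IMR-32 for both proteins.

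WDR5 was listed more often where N-MYC was shared. At least 2 CHP-134 WDR5 libraries overlapped 26.3% of the sites of all 5 N-MYC libraries, 10.5% of the CHP-134-only sites and 0.857% of the IMR-32-only sites. Both IMR-32 WDR5 libraries overlapped 12.2%, 2.96% and 7.14% of these classes, and the last value falls to 1.13% outside the 6 windows. N-MYC libraries of CHP-134 cells given the compound were separate samples of the line, and their replicates 1, 2 and 3 listed 77.9%, 21.5% and 88.7% of the CHP-134-only sites but 3.71%, 0.286% and 7.43% of the IMR-32-only sites. Replicate 2 was low for the sites of all 5 libraries as well (57.3%, against 96.0% and 97.5%).

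The 3072 shared sites were then compared by rank, each site's percentile being taken among these sites. Spearman correlations of ranks, a description over sites, were 0.564 to 0.603 within CHP-134, 0.616 within IMR-32 and 0.426 to 0.460 between the lines. In limma on normal scores of the ranks, 1 site was higher in CHP-134 (0.0326% of those tested) and 0 in IMR-32 (0%) at an adjusted p of 0.05, while 440 had an unadjusted p below 0.05, 220 in each direction. Ranking by −log10 q-value in place of fold gave 75 and 64 calls, so the count rests on the measure of strength. The 1 called site lay in an intron of the noncoding OXA1L-DT, at −51023 bp from the TSS of OXA1L (chr14:23184143-23185136). Its percentiles were 95.7, 99.8 and 99.8 in CHP-134 and 9.49 and 25.5 in IMR-32 (normal score difference 3.48 ± 0.536, SE; limma adjusted p = 0.0329), and no site was called on leaving out CHP-134 replicate 2 or 3 or either IMR-32 library.

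At 450 sites (14.6%) all CHP-134 libraries ranked above both IMR-32 libraries, and at 543 (17.7%) both IMR-32 libraries ranked above all CHP-134 libraries. The sites named next are the promoters with the largest such gaps; none passed limma's threshold, and their adjusted p ran from 0.0579 to 0.190. STOX2, a winged-helix protein gene, had percentiles of 80.4, 75.7 and 80.8 in CHP-134 and 2.51 and 2.83 in IMR-32. RPP25, which encodes a subunit of RNase P, had 89.5, 95.8 and 91.9 against 19.2 and 4.02, and its E-box lay in a coding exon (chr15:75248674-75248703). AKAP1, the mitochondrial anchor of protein kinase A, had 82.5, 80.3 and 79.0 against 6.54 and 5.63, with an E-box in its UTR (chr17:55162633-55162662).
RPP25: aggatctcggcgCACGTGacggttttggtg
AKAP1: cgcctgggctagCACGTGggggagctgcgg
UCP2, a mitochondrial carrier, and NCOA7, PDE7A, PI4K2B, SLC9B2, NLN and GOLM1 completed the CHP-134 side.

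On the IMR-32 side, UBTF, the gene of the RNA polymerase I factor UBF, had percentiles of 21.4, 1.92 and 4.98 in CHP-134 and 89.3 and 75.4 in IMR-32. The large subunit ribosomal protein genes RPL12 (43.1, 12.9 and 13 against 89.3 and 94.1) and RPL29 (10.6, 16.1 and 24.8 against 70.8 and 84.6) were among the 10. NOL10, a nucleolar protein gene, had 9.29, 5.58 and 6.77 against 58 and 82.4. SLC39A11, a zinc transporter gene, had 48.6, 14.5 and 14.9 against 92.0 and 94.6, with its E-box at the TSS (chr17:71088837-71088866), and another E-box site on this side lay 4037 bp from the TSS of BOD1L2 (chr18:54818307-54818386).
SLC39A11: ttccctcccgcaCACGTGgccctcccgcct
BOD1L2: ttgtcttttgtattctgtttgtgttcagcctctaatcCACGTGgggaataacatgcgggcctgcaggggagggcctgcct
ADNP, COQ4, FOXP4, H2AC15 and HERPUD1 were the others.

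**Figure D4:**
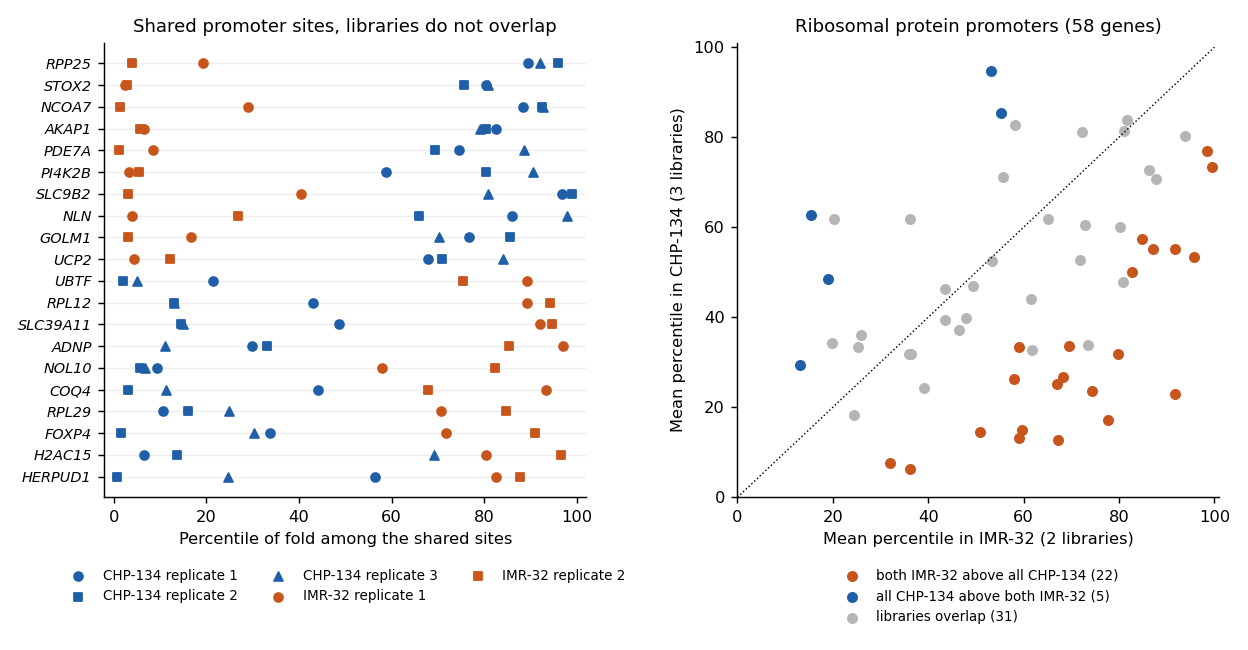
Left, percentile of fold among the 3072 shared sites at the 20 named promoters, 1 point per library (blue, CHP-134; orange, IMR-32). Right, mean percentile of 58 ribosomal protein genes in IMR-32 (x) and CHP-134 (y), coloured by whether the libraries overlap; 22 genes lie below the diagonal with no overlap and 5 above it.

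By position, the median percentile of shared distal sites was 43.3, 46.3 and 40.7 in CHP-134 and 50.9 and 51.8 in IMR-32 (43.4 ± 2.8 against 51.4 ± 0.65, SD, n = 3 and 2; exact permutation p = 0.1, the smallest this design allows). Both IMR-32 libraries ranked above all CHP-134 libraries at 26.1% of the 380 distal sites, against 17.7% of all shared sites. Sites with an E-box had medians of 58, 59.9 and 61.4 in CHP-134 and 61.9 and 62.3 in IMR-32 (exact permutation p = 0.2). Shared sites where at least 2 CHP-134 WDR5 libraries had a peak stood higher in CHP-134, with medians of 64.6, 67 and 67.7 against 60.4 and 60.9 (exact permutation p = 0.1). Shared sites with WDR5 in both IMR-32 libraries stood higher in IMR-32, with medians of 55.4, 53.3 and 59.7 against 64.3 and 63.4 (exact permutation p = 0.2), and the 305 sites with WDR5 in at least 2 libraries of each line had mean medians of 61.5 ± 3.8 and 65.6 ± 2.3 (exact permutation p = 0.3).

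Gene lists were read from summits within 1 kb of a TSS. Of 20136 protein-coding genes, 5185 (25.7%) were listed in all CHP-134 and 3005 (14.9%) in both IMR-32 libraries; 1262 (6.27%) were CHP-134-only and 49 (0.243%) IMR-32-only. Cytosolic ribosomal protein genes were the most shared of the large lists, with 67 of 79 in all CHP-134 and 61 in both IMR-32 libraries, and RPS27A alone was CHP-134-only. Yet they ranked lower in CHP-134: at the 58 genes with a shared site the median percentile among shared sites was 40.8, 47.7 and 41.9 in CHP-134 and 69.9 and 58.9 in IMR-32. The median difference was −16.0 points, against 1.55 over 2562 protein-coding genes, and 22 of the 58 (37.9%) had both IMR-32 libraries on top, against 15.8% of those genes. The largest gaps after RPL12 and RPL29 were RPL13A (14.0, 20.1 and 4.10 against 79.8 and 54.9), RPL32 (22.9, 0.505 and 47.2 against 71.7 and 77.0) and RPLP0 (31.6, 22.7 and 40.9 against 77.2 and 82.5). A further 5 genes (8.62%, against 15.4% of the 2562) went the other way without overlap, among them RPL37, RPL23, RPS29 and RPLP1. No member passed limma's threshold. The E-box stood near 12.1% of these 58 promoters, against 44.9% of the 2562, and the median difference was −4.97 points by percentile within the whole list, where that of the 2562 genes was 6.46, and −23.0 to −15 points without any 1 library.

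Genes of nucleotide, polyamine and one-carbon synthesis, a class of known MYC targets, were listed in all CHP-134 libraries for 27 of 32 and in both IMR-32 libraries for 16. Of the 32, 7 (21.9%) were CHP-134-only, against the 6.27% of protein-coding genes, and none was IMR-32-only. More of the list was in all CHP-134 libraries to begin with (84.4%, against 25.7%). Of genes in all CHP-134 libraries, 7 of 27 here and 1262 of 5185 protein-coding genes were CHP-134-only, a similar share. The 7 included SRM, SMS, DHODH, CTPS1, GMPS and SHMT1. On the scale of the whole list, used for all line-only genes, DHODH, an enzyme of pyrimidine synthesis, stood at 88.2, 86.8 and 92.0, and CTPS1, the CTP synthase, at 74.2, 94.0 and 88.6. Among glycolysis genes the glucose transporter SLC2A1 (84.5, 89.7 and 89.4), HK1, ALDOC and PGK1 were CHP-134-only, and SLC16A3, a lactate exporter, was IMR-32-only (54.9 and 48.4). Cell cycle genes were listed for 32 and 17 of 50, and WEE1, the kinase that restrains mitotic entry, was the strongest of the 7 CHP-134-only members (95.1, 94.9 and 88.2). The DNA repair list held 6 CHP-134-only genes of 55, among them XRCC3, OGG1, PARP2 and FANCA, and the spliceosome list 4 of 55, with 37 and 29 listed. CHP-134-only genes made up 18.2% of the glycolysis, 14% of the cell cycle, 10.9% of the DNA repair and 7.27% of the spliceosome list. Protein-coding genes had 6.27%. Of genes in all CHP-134 libraries they were 4 of 15, 7 of 32, 6 of 36 and 4 of 37, against 1262 of 5185 protein-coding genes. Ribosome biogenesis and RNA polymerase I genes were listed for 39 and 31 of 45, translation initiation factors for 30 and 19 of 38, and small nucleolar RNA host genes for 19 and 15 of 24; their median rank differences at shared sites were −2.60, −1.64 and −7.59 points, of which the first 2 changed sign when ranked within the whole list (0.221 and 2.45). A CHP-134-only share reads against lists of unequal length, since the CHP-134 lists are longer.

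**Figure D5:**
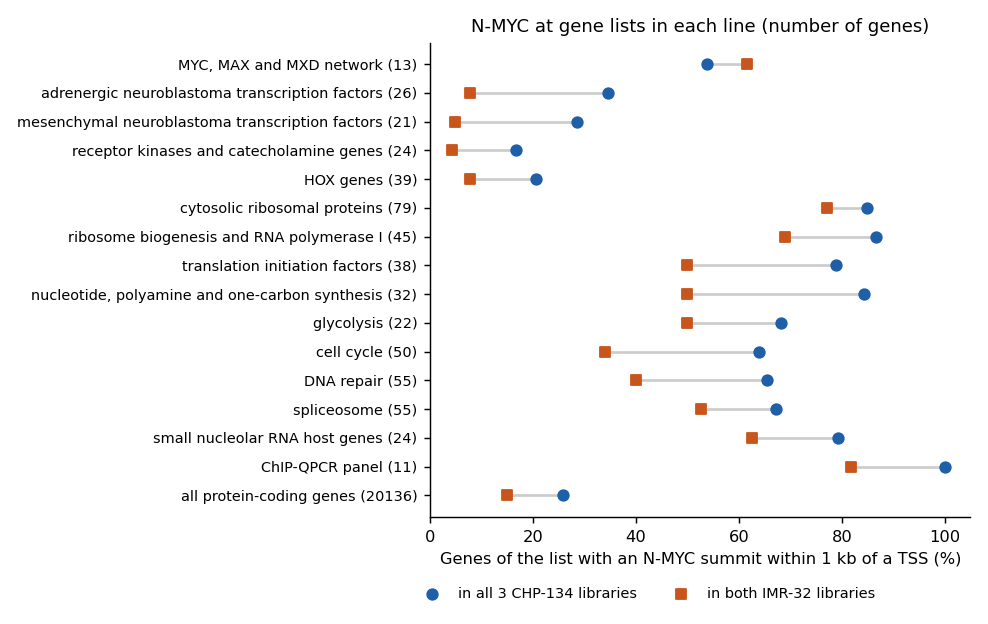
Share (%) of the genes of each list with an N-MYC summit within 1 kb of a TSS in all 3 CHP-134 libraries (blue circles) and in both IMR-32 libraries (orange squares), with the number of genes in brackets and all protein-coding genes in the last row. The CHP-134 share is the larger in every list except the MYC, MAX and MXD network.

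The MYC, MAX and MXD network was listed for 7 of 13 genes in CHP-134 and 8 in IMR-32. MYCN was IMR-32-only, and MGA (96.5, 45.1 and 50.8) and MXD4 (66.8, 49.4 and 76.1), both MAX partners that oppose MYC, were CHP-134-only. MNT, another such partner, had percentiles of 88.3 and 72.4 in IMR-32 and a peak in 1 CHP-134 library (19.2). MXD3 was high in all 5 libraries, from 95.4 to 99.6 within the whole lists.

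Lists of neuroblastoma identity genes were read against the 25.7% and 14.9% of protein-coding genes listed in CHP-134 and IMR-32 and the 6.27% that were CHP-134-only. Of 26 adrenergic transcription factors, 9 (34.6%) were listed in all CHP-134 and 2 (7.69%) in both IMR-32 libraries, SOX11 among them, and KLF13, LMO1, DACH1 and HEY1 (15.4%) were CHP-134-only. LMO1 was weak, at 0.886, 25.1 and 2.63. Of 21 mesenchymal factors the counts were 6 (28.6%) and 1 (4.76%), with TWIST1, SOX9 and ELK4 (14.3%) CHP-134-only, of which ELK4 was highest (77.7, 83.6 and 86.9). Of 24 receptor kinase and catecholamine genes 4 (16.7%) and 1 (4.17%) were listed, and FGFR1 and CHGA (8.33%) were CHP-134-only. Among 39 HOX genes HOXA7, HOXD1 and HOXD8 (7.69%) were CHP-134-only and HOXD10 was IMR-32-only (54.4 and 61.3). Of genes in all CHP-134 libraries, the CHP-134-only members were 4 of 9, 3 of 6, 2 of 4 and 3 of 8 in these lists. Among protein-coding genes they were 1262 of 5185. The lists are short, and these shares were not tested.

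The ChIP-QPCR loci were read the same way. Of these 11, all were listed in every CHP-134 library and 9 in both IMR-32 libraries. SNHG15, a small nucleolar RNA host gene, was near the top in both lines, with shared-site percentiles of 99.6, 99.7 and 99.8 in CHP-134 and 99.9 and 98.5 in IMR-32. EIF4G3 was CHP-134-only (97.7, 87.2 and 96.1) although WDR5 was listed there in all 3 CHP-134 and both IMR-32 libraries, and RPL10 was missing from IMR-32 replicate 2 alone. Of the 9 at shared sites, RNPS1, RPS6, CCT7 and METTL1 (44.4%) had both IMR-32 libraries above all CHP-134 libraries. The share was 15.8% over the 2562 protein-coding genes at shared sites. RPS6 had shared-site percentiles of 32.6, 9.55 and 1.66 in CHP-134 and 60.4 and 41.2 in IMR-32, and CCT7, a chaperonin subunit gene, 21.0, 48.4 and 16.8 against 71.9 and 61.3. SNHG15, RPL35, RPL17, SURF6 and RPS12 overlapped between the lines.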

How the data were processed

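Per the labels and the study's methods, N-MYC was immunoprecipitated from cross-linked cells with a custom antiserum, 3 immunoprecipitations were pooled per library, and reads were aligned to hg19 with Bowtie2. The authors called peaks per library with MACS2 (versions and control library not given in the sources used here). The deposited lists give each peak's fold enrichment (a ratio over local background), its −log10 q-value and its summit, with no read counts, so depth and its precision are unknown. Replicates came from separate experiments by the methods, and p-values measure the spread between these libraries.

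Overlapping peaks (at least 1 bp) were joined into sites, and the highest fold per library was ranked. Summits were set against 84635 TSSs of GENCODE 44 lifted to GRCh37, and hexamers were searched within 100 bp. Shared sites were tested with limma 3.58.1 in R 4.3.3 on normal scores, with Benjamini-Hochberg adjustment, and library values with two-sided exact permutation tests. Scripts were tested on simulated data. Named sites followed a rule: largest gaps of mean percentile at shared promoters, 10 strongest promoter and 5 strongest distal line-only sites per line, 4 E-box sites per line, members of 15 gene lists that are line-only, the ChIP-QPCR loci, MYCN and MEIS1 and the densest 1 Mb windows. Members and lists were chosen with earlier results of these data known, and the regions of chromosome 1, 2 and 16 were chosen after seeing the data. IgG libraries were not analysed here, and some loci are not reported here.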

Additional observations from a re-analysis of the deposited data

How the results depend on the processing

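The line-only counts depended most on list length and on single libraries. With 5000 peaks of highest fold per list there were 436 CHP-134-only sites and 313 genes and 523 IMR-32-only sites and 294 genes, against 1621 and 88 genes in the full lists. Presence at a −log10 q-value of at least 5 gave 1320 CHP-134-only sites, 958 genes and 49 IMR-32-only genes. Leaving out 1 library at a time gave 2422 to 3926 CHP-134-only sites and 1762 to 2996 genes, and 373 to 1595 IMR-32-only sites and 103 to 419 genes. A line with fewer libraries has fewer conditions to meet, so these counts and those of the full set are not on the same footing. The cause of the changes was not tested. Without chromosome 2, 233 IMR-32-only sites remained in the count.

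Calls among shared sites, 1 higher in CHP-134 and 0 in IMR-32, were 3 and 1 with peaks at a −log10 q-value of at least 5, 4 and 0 with 5000 peaks, 1 and 0 with summits joined within 200 bp, 0 and 0 by percentile within the whole list or by percentile in place of the normal score, 2 and 2 by log2 fold, and 75 and 64 by percentile of the −log10 q-value. Leaving out 1 library gave 0 to 1 and 0 to 0. Deviations of same-numbered libraries from their line's mean had correlations of 0.036 and 0.003 over sites. With 2 IMR-32 libraries these deviations mirror each other, so the values cannot settle whether the numbers pair libraries. The replicate block gave 10 and 4 calls where the same 4 libraries without it gave 0 and 0. The E-box share difference, −6.84 points in the full lists, was −1.59 with 5000 peaks, −7.24 with the replicate block and −9.71 to −3.96 without 1 library. The promoter share difference, −0.632 points, was 1.97 with 5000 peaks and −2.81 to 1.55 without 1 library, so its sign was not fixed. Among alternatives chosen after seeing the data, the IMR-32-only share on chromosome 2 was 9.37% with 5000 peaks (7.63% of all sites) and 18.1% to 31.9% without 1 library, and the CHP-134 sites of the first 40 Mb of chromosome 1 in no IMR-32 library made up 74.5% to 84.4% without 1 library. With 3 libraries against 2 no exact test can pass 0.05.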
